A study of Mus musculus with 16 samples.

Results

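The corneal basal cell captures were 8 of the 16 arrays of the series, 1 from each of 8 mice, and were taken as all arrays whose title ends in C. Each array held RNA from 300 cells cut by laser capture microdissection from the basal layer of the corneal epithelium of a wild type mouse. The other 8 arrays, which held limbal basal cells of the same wild type mice, were not used here. Strain, age, sex and any treatment of the mice were not given in the sources used here. The RNA was amplified, labelled with biotin and hybridised to an Affymetrix Mouse430_2 array, a one-colour array on which a gene is read by 1 or more probe sets. The transcripts that gave the strongest signals in corneal basal cells are described here with their spread over the 8 mice, and no test between groups was made.

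The corneal epithelium is a stratified epithelium without a cornified layer, and its basal cells sit on a basement membrane to which hemidesmosomes attach them. These cells divide and supply the layers above. Keratin 5 and keratin 14 pair in basal cells of stratified epithelia, while keratin 12 marks cells of the corneal type. The cornea is also known for soluble metabolic enzymes that are present in such amounts that they are called corneal crystallins, among them the aldehyde dehydrogenase ALDH3A1 and transketolase.

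The deposited signal is linear and in arbitrary units, and every array had been scaled to a trimmed mean of 500. A gene was read from its brightest probe set with a single gene symbol, which gave 18193 genes. The percentile of a gene is its place among these genes, either on 1 array or by its median signal over the 8 arrays. Over all genes the median percentile is 50, and 10% of genes lie above the 90th and 1% above the 99th percentile, which is 182 genes per array. The signal of a probe set depends on how well its probes bind as well as on the amount of transcript, so the order of genes given below is an order of signals. A capture is a mixture of cells, and fewer cells of a type cannot be told apart from less RNA per cell.

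The arrays differed in quality, and the array labelled as the corneal capture of mouse 5 stood apart from the other 7. Scanning took place on 3 days, of which day 1 held mice 1 and 2, day 2 held mice 3, 4 and 5, and day 3 the rest. The fluidics station was 1 for mice 3 and 4 and 2 for all other mice. On day 2 the array of mouse 5 thus differed from the others in station as well, and the part of the station was not tested. The header of the array titled for mouse 2 carried the number 3, and the title was followed. The Spearman correlation over probe sets had a median of 0.30 over the 28 pairs of arrays. It was 0.35 for the pair of day 1, between 0.17 and 0.28 on day 2 and 0.68 for all 3 pairs of day 3. The 7 pairs with mouse 5 lay between 0.10 and 0.19, and the 21 pairs without it between 0.25 and 0.68. These are correlations of ranks, which the scaling of an array does not change, and pairs within a day share the scan day.

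**Figure D1:**
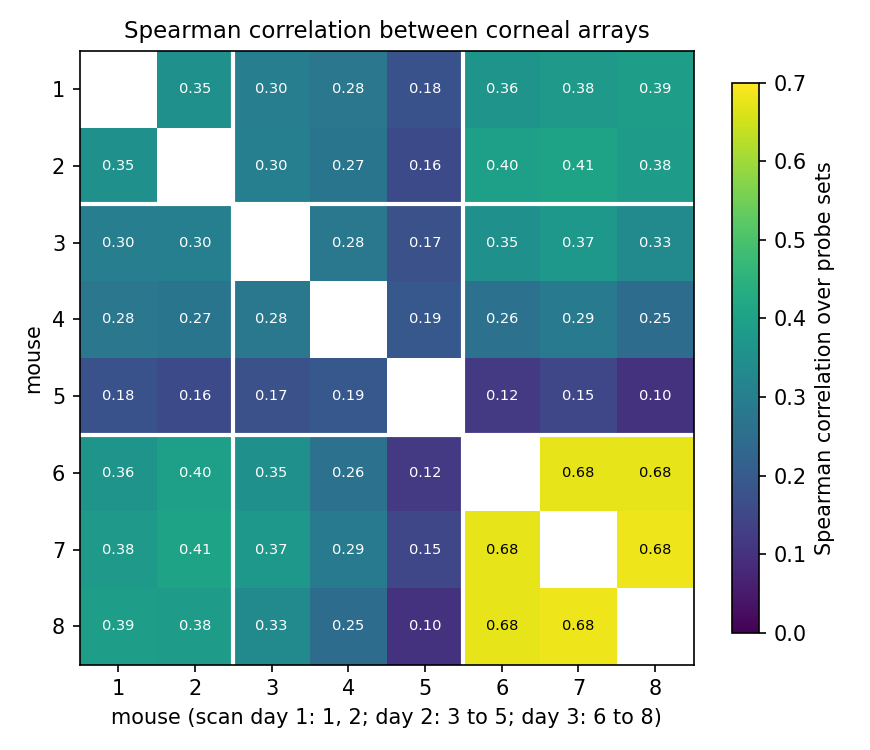
Spearman correlation between the 8 corneal arrays over all probe sets other than controls, with white lines between the 3 scan days; the axes give the mouse and the diagonal is left blank. The 3 arrays of day 3 correlate at 0.68 with one another, and the array of mouse 5 at no more than 0.19 with any other.

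The 99th percentile of the signal was 2417 on the array of mouse 5, between 3110 and 5637 on the arrays of mice 1 to 4 and between 15696 and 17704 on those of mice 6 to 8. Control probe sets, among them those of transcripts spiked into the hybridisation, took 12.39% of the signal of all probe sets on the array of mouse 5. That share ran from 6.52% to 9.69% over mice 1 to 4 and from 0.91% to 2.22% over mice 6 to 8. The ratio of the 3′ to the 5′ probe set of the actin gene Actb was 1.04 in mouse 5, with a range of 6.08 to 87.97 over the other mice. For Gapdh, the gene of a glycolytic enzyme, it was 1.22 in mouse 5, with a range of 3.34 to 8.42 elsewhere. Both probe sets of Actb were dim in mouse 5, at 239.4 (3′) and 229.3 (5′). The part of these measures in the results below was not tested. Medians and percentiles below include the array of mouse 5 unless its absence is stated, and its own signal is given for the genes described in full.

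The label of corneal epithelium was checked with 5 marker genes. Krt12, which encodes keratin 12, had signals of 176743, 307362, 300087, 220002, 948, 188386, 131351 and 58785 in mice 1 to 8 (probe set 1419231_s_at). Its percentile was 99.9 or above on 7 arrays and 76.3 in mouse 5. Another probe set of Krt12, 1419230_at, whose suffix denotes probes designed for a single transcript, ran between 23472 and 136516 on those 7 arrays and was at 250.9 in mouse 5. Aldh3a1, the corneal aldehyde dehydrogenase, had signals of 19279, 78169, 71672, 25840, 297, 147225, 97936 and 33812 in mice 1 to 8. Its percentile was 99.6 or above except in mouse 5, where it was 44.4. Krt5 had signals of 16796, 29102, 34469, 14207, 195, 79434, 60423 and 17796 in mice 1 to 8, with mouse 5 again far below every other animal. Without mouse 5 the medians of Krt12, Aldh3a1 and Krt5 were 188386, 71672 and 29102. By these 3 genes 7 arrays carry the profile that the label names, and the array of mouse 5 goes against it.

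The other 2 markers were less bright. Pax6, the transcription factor that specifies the eye, ran from 966.9 in mouse 5 over a median of 2408 to 9940 in mouse 7, a percentile of 96.0. Its 3 highest signals were those of day 3. Krt14, the partner of keratin 5, ran from 315.7 in mouse 4 over a median of 2081 to 5203 in mouse 2, a percentile of 95.1. On the array of mouse 4 its percentile was 41.9 and that of Krt5 99.8, but the other probe sets of Krt14 did not share the low reading: 1455573_at was at 1413.0 in mouse 4, its highest signal of the 8 arrays, and 1460347_at at 784.0, against a median of 524.8 over the arrays. The places of Pax6 and Krt14 depended on the processing. Pax6 had a percentile of 62.9 when the probe sets of a gene were averaged, and Krt14 one of 68.2 from plain _at probe sets and of 50.9 on scan day 2 alone.

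Promoters of 3 genes with signals among the 10 highest are shown: a corneal keratin, a crystallin-type enzyme and a ribosomal protein. Car7, Pik3cd, Sf3b4, Uqcrb and E2f5, also among the 10, are of other kinds and are described below. They run from 250 bases before to 50 bases after the annotated start, 5′ to 3′ on the strand of the gene, and come from RefSeq on build GRCm38.p6. Capitals mark the TATA motif TATAAA and the GC box GGGCGG on either strand. The Krt12 promoter (chr11:99422210-99422509, minus strand) holds 1 TATAAA, the Tkt promoter (chr14:30548881-30549180, plus strand) holds 5 copies of GGGCGG, and the Rps18 promoter (chr17:33955616-33955915, minus strand) holds neither.
Krt12: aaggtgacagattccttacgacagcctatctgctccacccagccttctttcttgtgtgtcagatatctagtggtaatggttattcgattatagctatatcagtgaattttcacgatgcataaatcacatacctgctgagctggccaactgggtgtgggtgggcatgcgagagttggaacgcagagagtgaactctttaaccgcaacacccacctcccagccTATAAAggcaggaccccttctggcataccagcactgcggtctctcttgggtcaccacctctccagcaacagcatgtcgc
Tkt: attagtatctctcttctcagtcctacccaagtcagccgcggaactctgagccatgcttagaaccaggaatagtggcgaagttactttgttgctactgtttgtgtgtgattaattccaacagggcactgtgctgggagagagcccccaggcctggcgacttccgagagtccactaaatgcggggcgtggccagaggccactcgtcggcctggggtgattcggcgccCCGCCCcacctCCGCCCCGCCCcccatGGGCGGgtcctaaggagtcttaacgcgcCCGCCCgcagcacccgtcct
Rps18: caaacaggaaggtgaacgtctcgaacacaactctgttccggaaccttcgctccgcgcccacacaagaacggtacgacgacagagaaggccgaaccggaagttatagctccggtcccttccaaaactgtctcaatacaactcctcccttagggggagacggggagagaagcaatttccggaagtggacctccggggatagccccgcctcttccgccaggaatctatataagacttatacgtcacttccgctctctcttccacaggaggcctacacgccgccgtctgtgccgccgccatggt

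Over the 75 of the 100 brightest genes with a promoter in the RefSeq table, 8.0% held TATAAA and 61.3% held GGGCGG, against 9.9% and 54.1% of the 14368 promoters of all genes. CCAAT was found in 46.7% of the 75, against 38.2% of all, and the AP-1 motif TGANTCA in 6.7%, against 6.3%. These are counts of letters on either strand in a window of 300 bases, and say nothing of binding.

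Keratin 12, desmoplakin, crystallin-type enzymes and ribosomal proteins were among the genes that led the profile. In order of median signal the 30 brightest genes were Car7, Krt12, Pik3cd, Tkt, Sf3b4, Uqcrb, E2f5, Rps18, Tpt1, Rps20, Rps28, Dsp, Aldh3a1, Hmgn1, Rps29, Rpl13a, Hspa8, Prpf19, Pgk1, Rpl35, Tgm2, Rpl37a, H2az1, Rps7, Gsto1, Grn, Fabp5, Akr1a1, Rps3 and Hnrnpk. Their median signals ran down to 31913, against 389.1 over all genes. The 100th gene had a median of 15168 and the next one 15067, so that limit does not mark a gap. Of the 100 brightest genes, 16 were among the 46 of the ribosomal protein list, which was matched by symbol pattern. Another list, the respiratory chain with 92 genes, held 8 of the 100. The list of corneal epithelium, with 23 measured genes, held 5, and that of crystallin-type enzymes, with 9, also held 5. All genes numbered 18193. The 100 brightest genes together took between 13.6% (mouse 8) and 24.9% (mouse 3) of the summed signal of all genes.

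**Figure D2:**
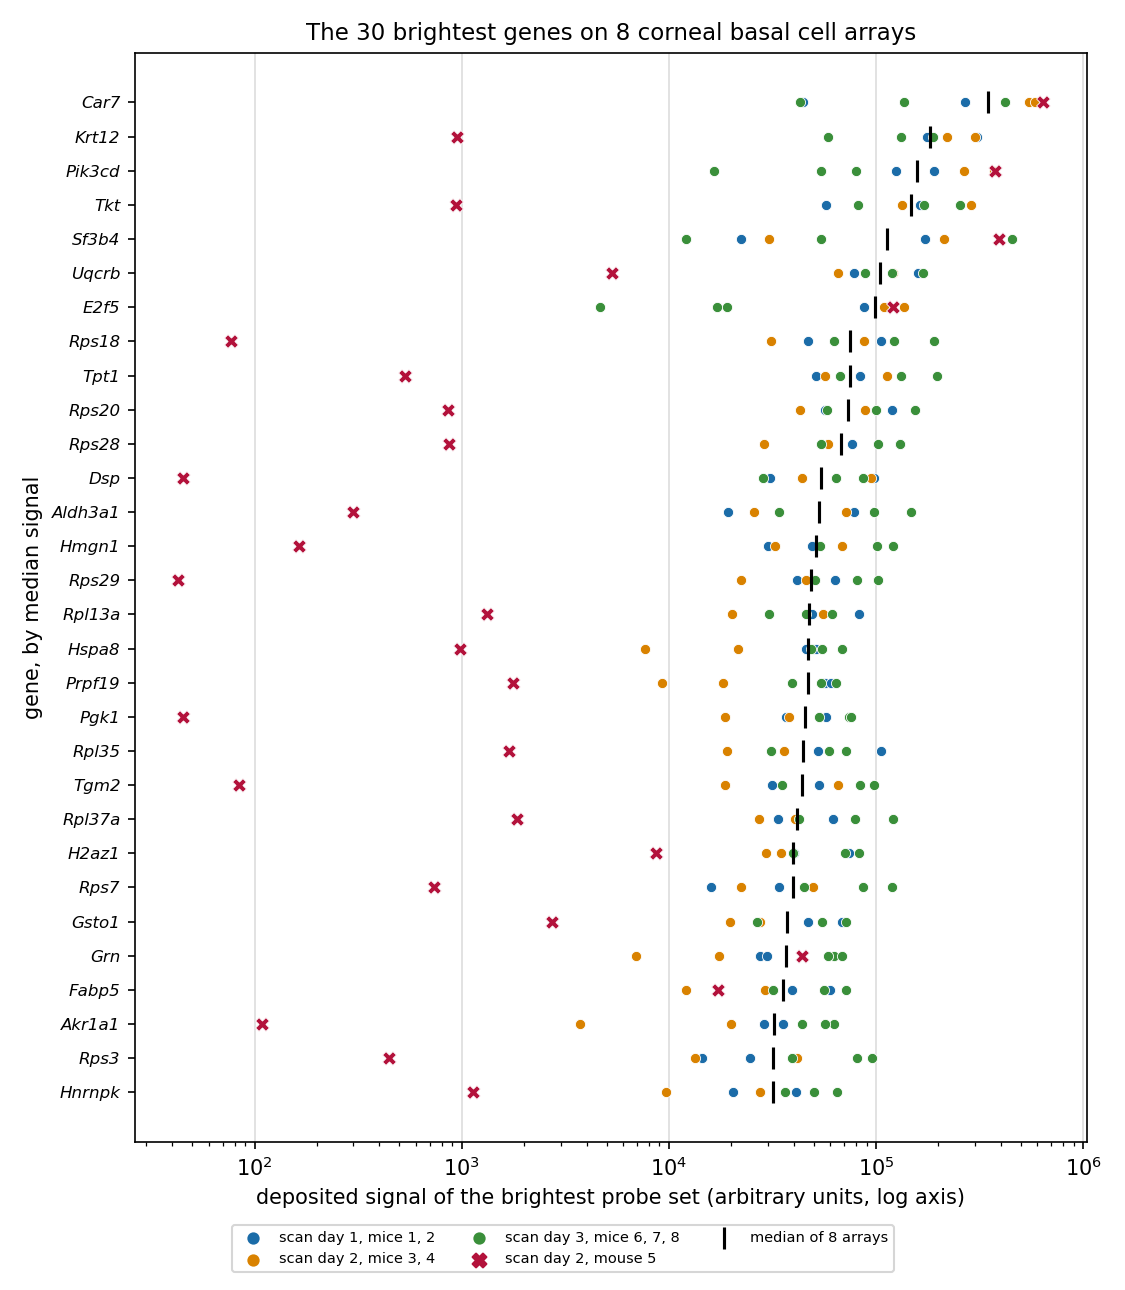
Deposited signal (log axis) of the 30 genes with the highest median over the 8 corneal arrays, 1 point per mouse coloured by scan day, a cross for mouse 5 and a bar for the median. For most genes the cross lies far left of the 7 other points, while for Car7, Pik3cd, Sf3b4 and E2f5 it lies among the highest.

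Among the enzymes, Tkt, the gene of transketolase in the pentose phosphate pathway, had signals of 57186, 162978, 288411, 133414, 935, 253250, 169496 and 81888 in mice 1 to 8. Its rank of 4 rested on probe set 1439443_x_at, and a second one, 1451015_at, had a median of 13207. Gsto1, a glutathione transferase of the omega class, ran from 2735 in mouse 5 over 37223 to 71965 in mouse 6. Pgk1, the phosphoglycerate kinase of glycolysis, was at 45.0 in mouse 5, and its other 7 signals ran from 18741 to 75938. Hspa8, the constitutive heat shock cognate chaperone, ran from 984.7 in mouse 5 over 47091 to 68091 in mouse 6. The median percentile of the 9 measured genes of this list was 99.9, and 5 of them lay above the 99th percentile. On single arrays that median was 72.3 in mouse 5, against 99.4 to 99.8 elsewhere.

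Ribosomal protein genes were bright as a group, and their order rested on probe sets that can bind related transcripts. Of 46 measured genes 34 lay above the 90th and 23 above the 99th percentile, with a list median of 99. Rps18, a protein of the small subunit, had signals of 46918, 105445, 87618, 31147, 76.8, 190958, 122414 and 62597 in mice 1 to 8. Rps20 ran from 858.0 over 73302 to 153336, Rps28 from 868.2 over 67760 to 130848 and Rps29 from 42.8 over 48310 to 102236, each lowest in mouse 5. When probe sets ending in _x_at, _s_at or _a_at were left out, the median percentile of the list was 69.1. Many of these genes have processed pseudogenes and near copies, so single members are uncertain. Tpt1, which encodes a translationally controlled protein, ran from 529.9 in mouse 5 over 75067 to 196651 in mouse 6.

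Energy metabolism followed. Of 92 genes matched by name to the respiratory chain, assembly factors included, 58 lay above the 90th and 19 above the 99th percentile, with a list median of 95.6. Uqcrb, a subunit of complex III, had signals of 158805, 78266, 121336, 65792, 5307, 168795, 119844 and 88580 in mice 1 to 8. It had the smallest spread among the 100 brightest genes once mouse 5 was left out, with an SD of log2 signal of 0.51 (n = 7). Its other probe set, 1416337_at, had a median of 1235. The glycolysis list had a median percentile of 91.8, with 6 of 12 genes above the 90th, and Aldoa (aldolase A) and Ldha (lactate dehydrogenase A) had median signals of 4521 and 4415. Aldoa was highest in mouse 1 at 24240 and next highest in mouse 8 at 15281.

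Read from the brightest probe sets, desmosomes, hemidesmosomes and the cytoskeleton of an epithelium were well represented, and gap and tight junctions less so. Dsp, the gene of desmoplakin, which ties keratin filaments to the desmosome, had signals of 30870, 97363, 94827, 43904, 45.2, 86067, 64265 and 28491 in mice 1 to 8. Perp, a desmosomal membrane protein, ran from 467.8 in mouse 5 over 15919 to 63909 in mouse 6. Of 13 desmosome genes 6 lay above the 90th percentile. Of 10 hemidesmosome genes 6 did, led by Dst at a median signal of 8844, Plec at 7333 and Cd151 at 6301, which encode dystonin, plectin and a tetraspanin. Itgb4, the integrin subunit of the hemidesmosome, had a percentile of 24.2 and a range of 42.7 to 928.7. The gap junction gene Gja1 (a connexin) had a median of 18498 and a range of 955.7 to 60505. Its list was lower, at a median percentile of 63.6, with 2 of 7 genes above the 90th and 3 below the 50th. The adherens junction list had a median percentile of 83.2, with 4 of 10 genes above the 90th. The order of these lists depended on the probe sets. When the probe sets of a gene were averaged, the gap junction list stood at 81.8 and the adherens junction list at 69.2. The desmosome list was then at 86.0 and the tight junction list at 70.5. Of the tight junction list 3 of 12 genes lay above the 90th percentile, with Cldn12 highest at a median of 2464.

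Ezr (ezrin), Myl12a (a myosin light chain) and Actg1 (gamma actin) had median signals of 16155, 16241 and 15823 and were among the 100 brightest genes. Of the 21 genes of the actin and tubulin list 14 lay above the 90th percentile, with a list median of 95.5. From plain _at probe sets alone that median was 73.1. The list of S100 proteins and annexins then stood at 64.5, against 87.4 as reported. Anxa1 (annexin A1) had a median of 21883 and S100a10, the partner of annexin A2, one of 17227, each lowest in mouse 5 and highest on day 3. Tgm2, a transglutaminase that crosslinks proteins, ran from 84.0 in mouse 5 over 44025 to 98173 in mouse 6. Fabp5, a fatty acid binding protein of stratified epithelia, had signals of 59923, 39357, 12035, 29016, 17274, 31887, 56303 and 71472 in mice 1 to 8. Its lowest signal was in mouse 3 and its array of mouse 5 lay within the range of the others.

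Redox genes were also high. In the glutathione and redox list 10 of 20 genes lay above the 90th percentile, with Gsta4 at a median of 18187, Txn1 (thioredoxin) at 11525, Sod1 (superoxide dismutase) at 9799 and Gpx1 (glutathione peroxidase) at 9356. Of 9 iron and metal genes 3 lay above the 90th percentile and 2 below the 50th, with a list median of 70.5, and 81.6 without mouse 5. Those 3 were the metallothionein genes Mt2 and Mt1, with median signals of 5938 and 5526, and Fth1, the ferritin heavy chain, with 5902. Among heat shock genes 9 of 14 lay above the 90th percentile, with Hspa1b, an inducible chaperone, at a median of 12679 and a highest signal of 49250 in mouse 6. In the immediate early list none of 20 genes did, and Fos and Jun, which encode subunits of AP-1, had medians of 802.0 and 618.1. Of 42 proteasome genes 19 lay above the 90th percentile, and of 56 translation factor genes, kinases of the same name included, 24 did.

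Further genes of the corneal epithelium stood high. Of 23 measured genes 14 lay above the 90th and 7 above the 99th percentile, with a list median of 96.0. Upk1b, a uroplakin, was the one of those 7 that was not lowest in mouse 5, where its percentile was 99.3. Lypd2 and Clu (clusterin) had medians of 9692 and 8681 and Aldh1a1, another aldehyde dehydrogenase, one of 4797. In the list of transcription factors 6 of 23 lay above the 90th percentile. Klf4, which is needed for corneal epithelial maturation in mice, had a median of 6130 and a range of 219.2 to 37819. Tfap2a ran from 1662 over 3415 to 12172, and Trp63, the p63 gene of basal cells, from 595.9 over 1821 to 8024. Ehf, an epithelial factor of the ETS family, had a percentile of 85.0 and the Krüppel-like factor gene Klf5 one of 67.4.

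Of the 18 measured basal cell genes 8 lay above the 90th percentile, and this list varied more between arrays than the corneal list. Its median percentile on single arrays was 36.6 in mouse 5, between 54.3 and 78.6 in mice 1 to 4 and between 84.5 and 94.3 in mice 6 to 8. Col17a1, the hemidesmosomal collagen, ran from 167.0 over 1984 to 13249, with its 2 highest signals in mice 6 and 7. Krt15, a further basal keratin, had a percentile of 33.1 and a range of 39.7 to 2960. Of 34 cell cycle genes 9 lay above the 90th percentile, with Mki67, the gene of the proliferation antigen, at a median of 2948 and Pcna, the DNA polymerase clamp, at 2771. The median percentile of the cell cycle list was 80.8, and 63.9 from plain _at probe sets alone. Tpx2 and Hmmr led that list. Tpx2 was read from 1447518_at, and 1447519_x_at had a median of 23370. Its probe sets 1428104_at and 1428105_at did not bear out that place, at medians of 417.2 and 222.2. Hmmr was highest in mice 4 and 5, at 26933 and 19159, against 3399 to 8656 elsewhere. Tpx2 is described further below among genes that were bright in mouse 5.

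**Figure D3:**
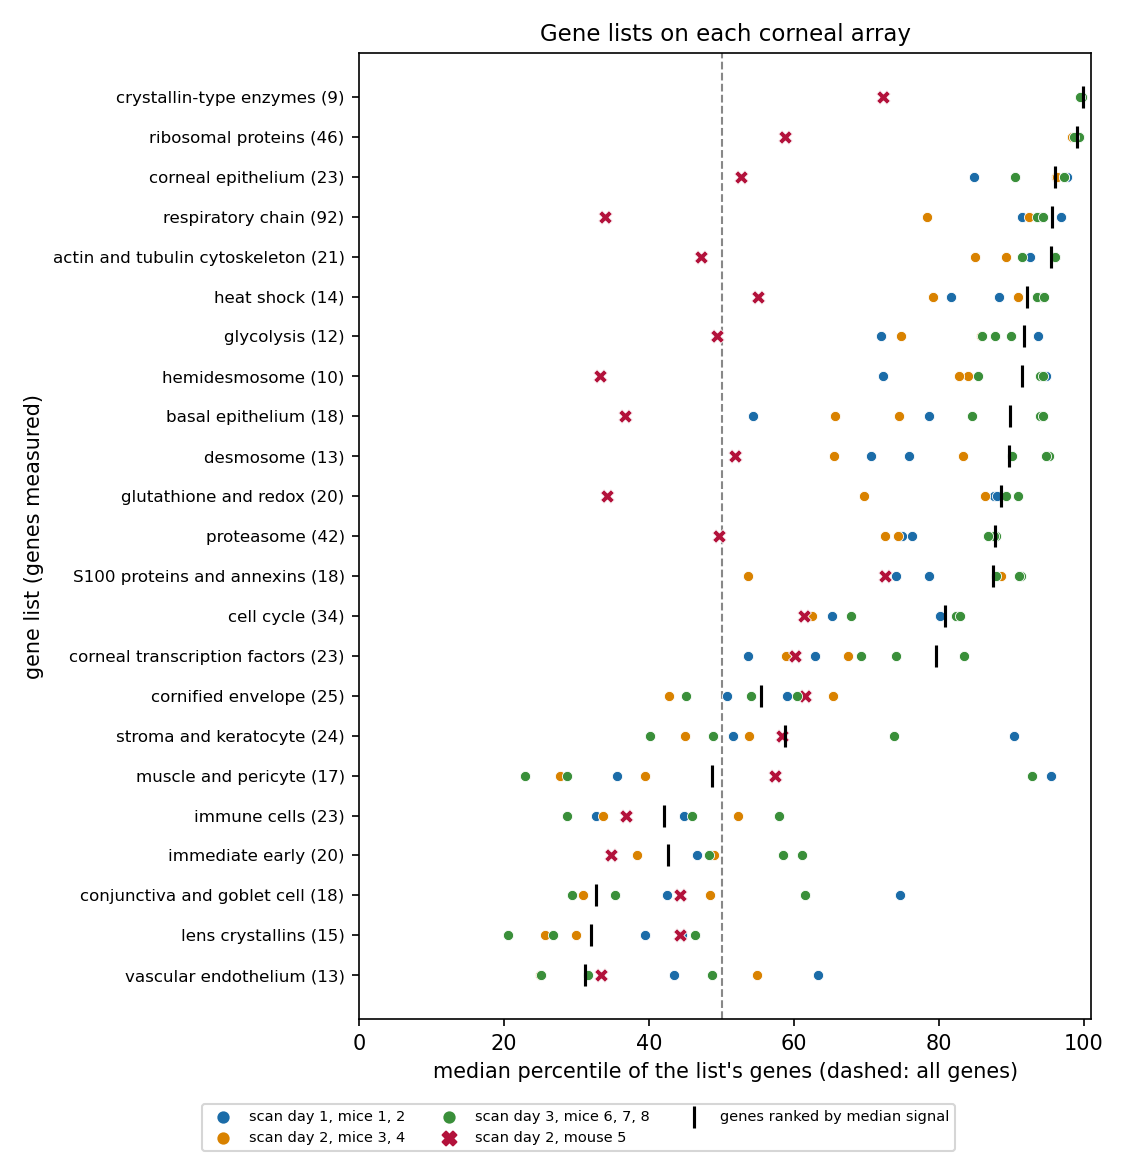
Median percentile of 23 gene lists on each of the 8 corneal arrays (points coloured by scan day, a cross for mouse 5), with the number of genes measured in brackets, a bar for the percentile by median signal and a dashed line for all genes. Crystallin-type enzymes and ribosomal proteins lie at 98.3 or above in the 7 arrays other than that of mouse 5, and muscle genes lie above 90 in mice 1 and 8 alone.

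Genes that mark other tissues were mostly near the middle of the distribution or below it, and none of their lists had a gene at 0, since the lowest signals were above 0 in every array. Lens crystallins had a median percentile of 32.0 and vascular endothelium one of 31.2. Immune cells were at 42.1, and none of the 3 lists had a member above the 90th percentile by median signal. The same held for corneal endothelium, nerve and Schwann cells and erythrocytes, at list medians of 42.4, 40.4 and 33.3. The list of melanocytes and pigment epithelium had a median of 55.4, and 38.1 without mouse 5, whose array had it at 80.0, against 24.6 to 55.5 elsewhere. Its summed signal was 9550 in mouse 5 and 13971 in mouse 1, the highest, against 2296 to 8224 elsewhere. In the list of conjunctiva and goblet cells, at a median of 32.6, Aqp5 and Krt6a were the 2 genes above the 90th percentile by median signal. Aqp5, a water channel also known in corneal epithelium, ran from 94.1 in mouse 5 over 12299 to 53238 in mouse 7, and Krt6a from 76.3 in mouse 5 over 2918 to 16897 in mouse 7. On single arrays the median of that list was 74.6 in mouse 1 and 61.5 in mouse 8, against 29.4 to 48.4 elsewhere, and 5 and 4 of its 18 genes lay above the 90th percentile on those arrays, against 0 to 3 elsewhere. The summed signal of that list lay between 7210 in mouse 5 and 73145 in mouse 7. Of the cornified envelope genes Calml3 had a median of 5914, and 2 of 25 lay above the 90th percentile.

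On the arrays of mice 1 and 8 skeletal muscle genes were bright. Myh1, a myosin heavy chain of fast muscle, was at 52140 and 46063 in mice 1 and 8, against 34.3 to 1324 over the other 6. Myh2, a second fast myosin, was at 38061 and 16850, against 18.8 to 203.1, and Tnnc2, a troponin of fast muscle, at 10958 and 44678, against 21.1 to 1371. Mb (myoglobin) was at 28220 and 7501 in these mice, against 14.9 to 858.9. Of the 17 genes of the muscle list 10 lay above the 90th percentile in mouse 1 and 9 in mouse 8, against 2 in mouse 5 and none in the other 5. The summed signal of the list was 156318 and 148270 in mice 1 and 8, against 3353 to 11407 elsewhere.

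Among all 28 pairs of arrays, the pair of mice 1 and 8 was the single one with genes above the 99th percentile on both and below the 90th on the other 6, and these were Chchd10, Myh1 and Tnnc2. The stromal list was also higher there, at a median percentile of 90.4 in mouse 1 and 73.8 in mouse 8, against 40.1 to 58.4 elsewhere. Its summed signal was 86892 and 36928, against 12618 to 18376. Fmod, the gene of the collagen-binding fibromodulin, was at 32618 in mouse 1, against 6.6 to 714.4 elsewhere. Cryab, a small heat shock protein of lens and muscle, was at 42336 in mouse 1 and 10809 in mouse 8, against 54.0 to 1338 over the other 6. Krt12 and Aldh3a1 had percentiles of 99.6 or above on both arrays. The part of cells other than epithelium in these 2 captures was not tested. Without them, 87 of the 100 brightest genes stayed among the 100 brightest.

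**Figure D4:**
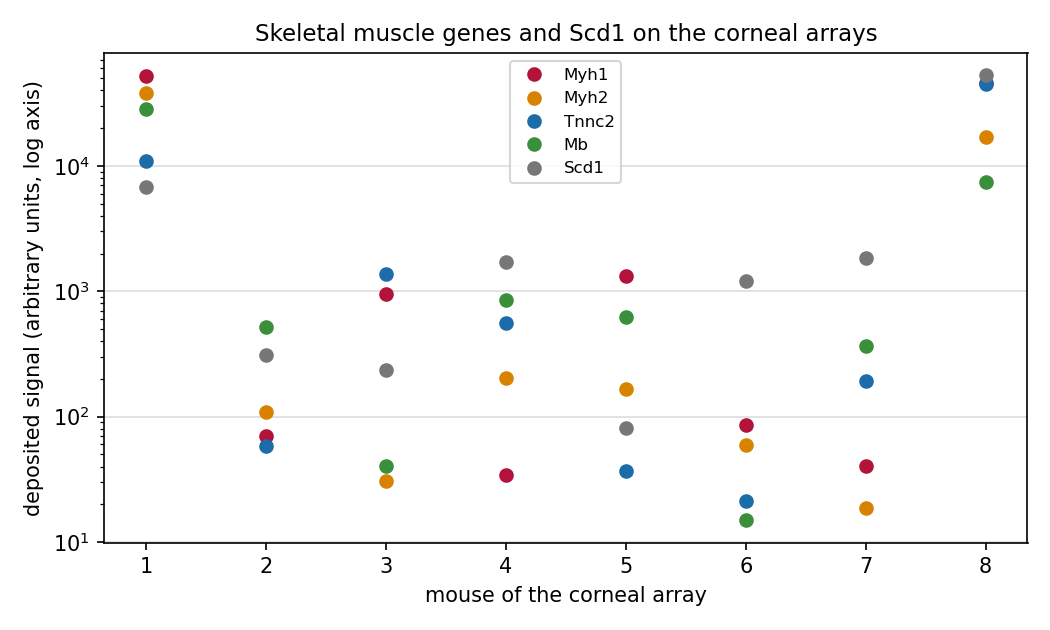
Deposited signal (log axis) of Myh1, Myh2, Tnnc2, Mb and Scd1 on the corneal array of each mouse, 1 point per array. The 4 muscle genes lie at 7501 or above in mice 1 and 8 and at 1371 or below in mice 2 to 7, and Scd1 reaches 52790 in mouse 8.

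Single arrays had leading genes of their own. Scd1, the stearoyl-CoA desaturase of lipid synthesis, was at 52790 in mouse 8, at 6783 in mouse 1 and at no more than 1853 over the other 6. Krt6b, a keratin of activated and suprabasal epithelium, was at 61345 in mouse 7, 27948 in mouse 6 and 19360 in mouse 1, against 1173 to 8948 elsewhere. Ahnak, a large scaffold protein, was at 58926 in mouse 7 and 50465 in mouse 6 and at 65.1 in mouse 5. Igfbp5, an insulin-like growth factor binding protein, was at 13388 in mouse 4 and 12014 in mouse 5, with 9068 in mouse 1 and no more than 4779 in the others. On the array of mouse 5, 17 genes stood above the 99th percentile that were below the 90th on all other arrays, against 1 gene each in mice 1 and 8 and none in the other 5. Among the brightest genes of mouse 6, Rps2, Perp and Tmsb4x (thymosin beta 4) had the lowest median percentiles on the other arrays. Those medians were still 99.3, 99.3 and 99.4, so these genes do not set the array of mouse 6 apart. They were high in mice 7 and 8 as well.

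A few of the brightest genes ran with the spiked hybridisation controls from array to array, or were bright in mouse 5 where the corneal genes were dim. The mean signal of the 18 spiked control probe sets was 57951, 84846, 66206, 83643, 101635, 24466, 11563 and 6011 in mice 1 to 8, highest in mouse 5 and 16.9-fold lower in mouse 8. Pik3cd, the delta catalytic subunit of phosphoinositide 3-kinase, had signals of 189819, 124543, 266056, 372411, 374846, 54323, 79898 and 16452. Its SD of log2 signal over the 8 arrays was 1.56, and 0.68 after division by the spiked control mean of each array. E2f5, a transcription factor of the cell cycle, had signals of 115650, 87721, 109669, 136530, 121007, 19147, 17081 and 4655, and its SD was 1.82 before and 0.51 after that division. Both thus ran with the spiked controls, high in mice 1 to 5 and low in mice 6 to 8.

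Car7, a carbonic anhydrase, held the first rank with signals of 44566, 270112, 549932, 583575, 641952, 137046, 421344 and 43126 in mice 1 to 8. Its SD was 1.62 before and 1.55 after division by the spiked controls, so it followed them less closely. The signal came from probe set 1443824_s_at alone, while the other 2 probe sets of Car7 had medians of 60.5 and 214.8. The other probe sets of Pik3cd had medians between 42.8 and 800.6, and those of E2f5 of 314.0 and 818.5. Tpx2, Nrsn2, Rassf1, Slc5a9 and Csdc2 were likewise highest in mouse 5, at 180336, 116047, 518652, 88791 and 83406. Division by the spiked controls took the SD of Slc5a9 to 0.81, against 1.31 before, but left those of Tpx2, Nrsn2 and Csdc2 at 1.48, 1.45 and 1.31, against 1.57, 1.77 and 1.63 before. The SD of Rassf1 was 2.15 after and 1.81 before, so most of these genes did not run closely with the controls. The 8 genes of this comparison were picked after their values were seen. What the probe sets of these 8 genes bound was not tested. Sf3b4, a splicing factor subunit, had signals of 22375, 172899, 212195, 30422, 393159, 53941, 455221 and 12093. It was thus also bright in mouse 5, though highest in mouse 7. Its SD was 1.99 before and 2.12 after division by the spiked controls, and its other probe set had a median of 1299.

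**Figure D5:**
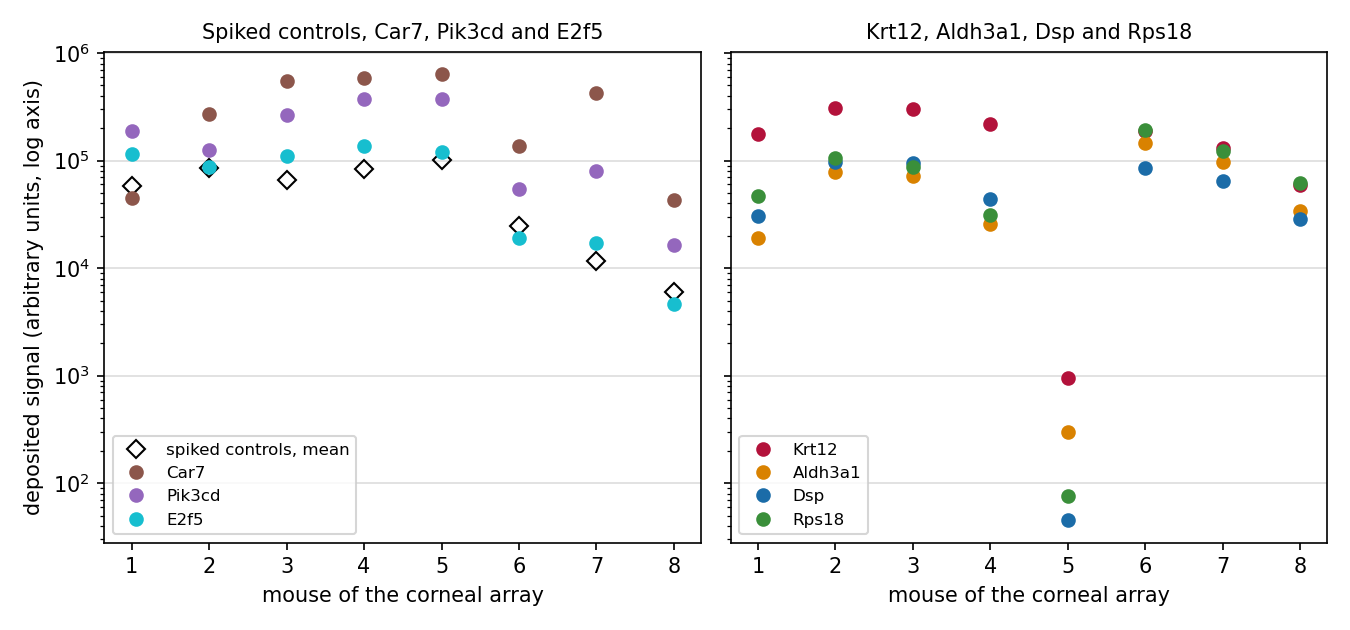
Deposited signal (log axis) on the corneal array of each mouse: the left panel has the mean of the 18 spiked control probe sets (open diamonds) with Car7, Pik3cd and E2f5, the right panel Krt12, Aldh3a1, Dsp and Rps18. The genes of the left panel are high in mouse 5, where those of the right panel fall to 948 or below.

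The spread between arrays was large and rested in good part on mouse 5. Over the 100 brightest genes the SD of log2 signal had a median of 2.11 (n = 8 arrays), and 1.12 without mouse 5 (n = 7). Over all genes these medians were 1.47 and 1.40. Within scan days the median SD of the 100 brightest genes was 0.54 on day 1 (n = 2), 0.82 for mice 3 and 4 (n = 2) and 0.52 on day 3 (n = 3). Mouse 5 was the lowest array for 86 of the 100 genes and the highest for 7, while mouse 6 was the highest for 58.

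The 6 genes with the largest SD, Dsp (3.71), Rps29 (3.69), Rps18 (3.63), Pgk1 (3.60), Ywhab (3.51) and Hmgcs1 (3.39), were all lowest in mouse 5. Ywhab encodes an adaptor of signalling proteins and Hmgcs1 the synthase of the mevalonate pathway. Without mouse 5 their SDs lay between 0.71 and 1.67. The 6 genes with the smallest SD were Api5 (0.69), Fabp5 (0.90), H2az1 (1.04), Grn (1.12), Slc5a9 (1.31) and Pabpn1 (1.33). Without mouse 5 their SDs were 0.69, 0.87, 0.60, 1.20, 1.17 and 0.98 in the same order. Those of Grn and Slc5a9 then lay above the median of 1.12 for the 100 brightest genes. A small SD over the 8 arrays thus depended in part on the signal in mouse 5. Api5 is an apoptosis inhibitor, H2az1 a histone variant, Grn the gene of progranulin and Pabpn1 a nuclear poly(A) binding protein. Grn had signals of 27408, 29806, 17430, 6923, 43910, 62927, 68220 and 58693 in mice 1 to 8, so that its lowest array was that of mouse 4.

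Of all genes, 9 stood above the 99th percentile on each of the 8 arrays, namely Car7, Eif4g2, Fabp5, Grn, Gsto1, H2az1, Npc2, Pabpn1 and Uqcrb. On the 7 arrays other than that of mouse 5, with the same probe sets, the number was 51, among them Krt12, Tkt, Aldh3a1, Dsp, Hspa8, Pgk1, Tgm2, Tgfbi, Adh1, Eef1a1 and Rps18. Krt5 was not among them because its percentile was 98.7 in mouse 8. Tgfbi encodes an extracellular protein whose human gene carries corneal dystrophy mutations, and it ran from 250.3 in mouse 5 over 29478 to 105531 in mouse 6. Adh1, an alcohol dehydrogenase, ran from 122.9 in mouse 5 over 24679 to 71806 in mouse 7.

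The probe set chosen for a gene weighed on its rank. Of the 100 brightest genes 85 were read from probe sets ending in _x_at, _a_at or _s_at, which can bind several transcripts, against 22.8% of all probe sets with a single symbol. The suffix _x_at alone made up 44 of them, against 5.8%. Of the 87 genes with more than 1 probe set, the second brightest one stood above the 99th percentile for 31 genes, above the 90th for 67 and below the 50th for 7. The median ratio of the brightest to the second was 10.4. Those 7 were Car7, Tpt1, Rpsa, Nrsn2, Slc5a9, Anxa1 and Myl12a, so for these a second reading of the same gene does not bear out the rank.

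When genes were ranked from plain _at probe sets alone, 16591 genes remained and the first 10 were Pik3cd, E2f5, Dsp, Aldh3a1, Krt12, Rpsa, Tpx2, Eef1a1, Adh1 and Krt5. Behind them came Tmprss11a, a transmembrane serine protease, with a range of 77.9 to 80937 and a median of 22722, and then Anxa1, Itm2b, Gsta4, Myl12a and Perp. Dsp, Aldh3a1, Krt12 and Krt5 thus stood among the first 10 of this order, against ranks of 12, 13, 2 and 46 in the order over all probe sets. Eef1a1, the elongation factor that brings transfer RNA to the ribosome, ran from 787.4 in mouse 5 over 26470 to 89860 in mouse 6.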

How the data were processed

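The deposited values are intensity values, 1 for each probe set of an array, and are linear; their algorithm is not given in the sources used here. The mean of each corneal column, trimmed by 2% at both ends, was 500, as computed from the values, so the deposited intensity table was already scaled. Where little target was bound, such scaling also raises background and spiked controls. Scan day and fluidics station were taken from the array information, per the file headers.

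Of 45101 probe sets, 64 were controls, 34945 had 1 gene symbol in the platform annotation, 932 had several and 9160 were not listed. Symbols were updated through Entrez identifiers, of which 99.4% matched RefSeq. No value column was left unmapped. A gene was read from its single-symbol probe set with the highest median over the 8 corneal arrays, which gave 18193 genes. No filter, pseudocount or further normalization was used, and SDs are of log2 signal over arrays. Detection calls were not used here, so a dim gene has no lower limit.

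Titles gave the groups and the mice. Nothing was tested, since only corneal arrays were described. Named genes are the 30 with the highest median, the 6 with the largest and the 6 with the smallest SD among the 100 brightest, leading genes of each array, 5 markers and the brightest members of 35 gene lists. The members and lists were chosen with earlier results of these data known. Lists of ribosomal, respiratory chain, proteasome and translation factor genes were matched by symbol pattern. Alternatives covered normalization, summary, probe set choice, a filter on dim probe sets, scan days and leaving out each array. Computations used Python 3.11.15, numpy 2.4.6 and pandas 2.3.3. The ranking code was also run on simulated data. No outcome of that run is given, so it lends no support to the order of genes on these arrays. RefSeq promoters on GRCm38.p6 were matched by symbol, for 75 of the 100 brightest genes.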

Additional observations from a re-analysis of the deposited data

Results flagged for a closer look

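Of 78 measures looked at over the 8 corneal arrays, 34 had 1 array whose gap to the nearest other exceeded 0.526 of the whole range, Dixon's limit for 8 values. For single genes gap and range were taken on log2 signals, while the signals printed below are linear. Chance flags about 1 in 20 such groups. In 33 of the 34 the array was that of mouse 5, in each case the lowest, so these are not separate findings.

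Corneal and basal genes on that array were Krt12 at a signal of 948.4, Aldh3a1 at 297.3, Krt5 at 195.4, Dsp at 45.2, Tkt at 935.2 and Tgm2 at 84.0. Ribosomal protein genes were Rps18 at 76.8, Rps20 at 858.0, Rps28 at 868.2, Rps29 at 42.8, Rps7 at 733.0, Rps3 at 445.3, Rpl13a at 1329.6, Rpl35 at 1683.4 and Rpl37a at 1852.3. The other genes were Uqcrb at 5306.6, Tpt1 at 529.9, Hmgn1 at 164.2, Pgk1 at 45.0, H2az1 at 8687.7, Gsto1 at 2735.1, Akr1a1 at 109.1 and Hnrnpk at 1134.3. Uqcrb, H2az1 and Gsto1 kept signals above the 99th percentile of that array in spite of the gap.

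For gene lists the value on the array of mouse 5 is a median percentile. It was 52.7 for corneal epithelium, 33.2 for the hemidesmosome, 72.3 for crystallin-type enzymes, 34.2 for glutathione and redox and 47.2 for the cytoskeleton. It was 55.0 for heat shock genes, 58.8 for ribosomal proteins, 33.9 for the respiratory chain, 49.6 for the proteasome and 44.6 for translation factors. None of the lists of other cell types had such a gap for mouse 5.

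The remaining measure was the ratio of the 3′ to the 5′ probe set of Actb, which was 87.97 in mouse 2. The 5′ probe set was the dim one there, at 119.1, against 10478 for the 3′ one. The causes of these gaps were not tested.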

How the results depend on the processing

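Under each alternative the probe set of a gene and the 100 brightest genes were chosen anew, so counts and SDs can differ from those of fixed genes in the text above. No paired analysis was possible because the results describe 1 group and come from no test. Averaging all probe sets of a gene kept 48 of the 100 brightest genes and left 0 genes above the 99th percentile on every array, against 9 as reported. Leaving out probe sets ending in _x_at, _s_at or _a_at kept 21 and left 2. Scan day 2 alone kept 64, had 28 genes above the 99th percentile on each of its arrays and lowered the median over the gene lists to 62.9, against 78.7. Day 1 alone had 127 such genes and a median SD of 0.60, and day 3 alone had 109, a median SD of 0.57 and a median correlation of 0.68. Without day 2 there were 67 such genes. Leaving out each array in turn gave between 8 and 52 of them, 52 without mouse 5. An alternative chosen after seeing the data, without day 2 and mice 1 and 8, gave 114 such genes and a median SD of 0.74. Otherwise between 68 and 100 of the 100 brightest genes were kept, and the median percentile of the 5 markers stayed between 99.5 and 100, although Pax6 stood at 62.9 when probe sets were averaged, and Krt14 at 68.2 without the suffixed probe sets and at 50.9 on day 2 alone. With a pseudocount of 89.4 the median SD was 2.05. Of 800 recomputed values of single markers and lists, 57 moved by more than the spread between arrays. By construction, fewer arrays can share more genes, and other causes were not tested. The 99th percentile of the signal was 2417 to 5637 in mice 1 to 5, against 15696 to 17704 in mice 6 to 8. Median signals ran the other way, at 301.1 to 336.8 against 181.7 to 221.0. The part of these differences in the ranks was not tested.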
